A study of Mus musculus with 16 samples.

Results

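The genes described here are 8 genes listed for stellate cell quiescence and retinoid storage. They are the intermediate filament genes Des, Gfap, Vim and Nes, the retinoid genes Lrat and Rbp4, the nuclear receptor gene Pparg and the lipid droplet gene Plin2. Vim and Nes are not taken here as marks of the resting state. They were chosen by name, with no expression value in the rule, as the protein-coding rows of the count tables that carry these symbols. All 8 were found among 21684 protein-coding genes, in tables of 56941 genes in all.

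Bulk RNA-seq was performed on both partners of an indirect coculture in which cells on an insert shared medium, but no contact, with explants of mouse superior cervical ganglia (SCG), the sympathetic ganglia of the neck. PSCs were mPSC1 cells, an immortalized murine pancreatic stellate cell line, sequenced after culture alone (PSC, n = 3 libraries) or above SCG explants (PSC+SCG, n = 3). The explants, from pups shortly after birth, were sequenced after culture alone (SCG, n = 3), with PSCs (SCG+PSC, n = 4) or with NIH 3T3 mouse embryonic fibroblasts as the other cell type (SCG+MEF, n = 3). A coculture held 8 to 13 explants and 10000 cells and lasted about 70 hours. The PSC groups come from 1 immortalized line grown in culture, and the explants are whole ganglion pieces that hold neurons, glia and connective tissue cells. In bulk RNA of such explants, fewer cells of a type and less RNA per cell cannot be told apart. Nothing in the labels says which libraries came from separate cultures or litters, so p-values measure the spread between libraries, which may be partly technical.

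Stellate cells are the vitamin A storing cells of the pancreas and liver. At rest they take up retinol, esterify it with LRAT and keep the esters in droplets coated by perilipins such as PLIN2, and in vivo they carry the filament proteins desmin and GFAP. Once activated in injury, tumors or on plastic, they lose the droplets, lower PPARG, a brake on activation, and make smooth muscle actin and collagen. Retinol can instead be oxidized to retinaldehyde and then by ALDH1A enzymes to retinoic acid, which binds nuclear receptors of the RAR family and is broken down by CYP26 enzymes.

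The libraries held 31900689 to 41632381 reads on genes. The files give normalized counts, which are reads divided by a factor for each library, and these were compared within the PSC table and within the nerve table but never tested between them. To set genes of different length and the 2 tables side by side, the usual depth-scaled read counts were used, RPM over the reads on genes and RPKM, which also divides by the exon length in kilobases. A gene with 0 reads could have a level of up to 0.0721 to 0.094 RPM, the level of 3 reads, and this limit covers counting error only. Genes were tested with limma on log2(normalized count + 1), with Benjamini-Hochberg adjustment over all genes. Its SEs, intervals and p-values also draw on the spread of other genes of like level. A gene passed where its adjusted p did not exceed 0.05 and its log2 fold change reached 0.5 in either direction. Libraries with the same replicate number deviated together, so each test is also given with the replicate number as a block.

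Of the 8 genes, 3 had few or no reads in the mPSC1 libraries, with no resting stellate cells in the study to set them against. Lrat, the retinol esterifying enzyme and the most specific marker of the set, had 0 reads in all 6 PSC and PSC+SCG libraries. Gfap had 0 to 8 reads per library and Rbp4, the secreted carrier of retinol in blood, 0 to 4 reads. Tcf21, a transcription factor gene named here after its values were seen, was also at 0 in all 6. It was the 1 gene at 0 in a list of 17 further genes of quiescent stellate cells. Of these 17 genes, 14 had a mean of at least 10 reads in each group. This list summed to 760 to 861 RPM in PSC and 743 to 973 in PSC+SCG. The 16 activation genes, among them smooth muscle actin (Acta2) and type I collagen (Col1a1), were all detected. They summed to 21300 to 28800 RPM in PSC and 23000 to 29600 in PSC+SCG. All 16 were also detected in SCG, at 15900 to 25100 RPM, so this sum is not particular to the PSCs. The 5 members that remained measurable in PSCs were Vim, Nes, Plin2, Pparg and Des.

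**Figure D1:**
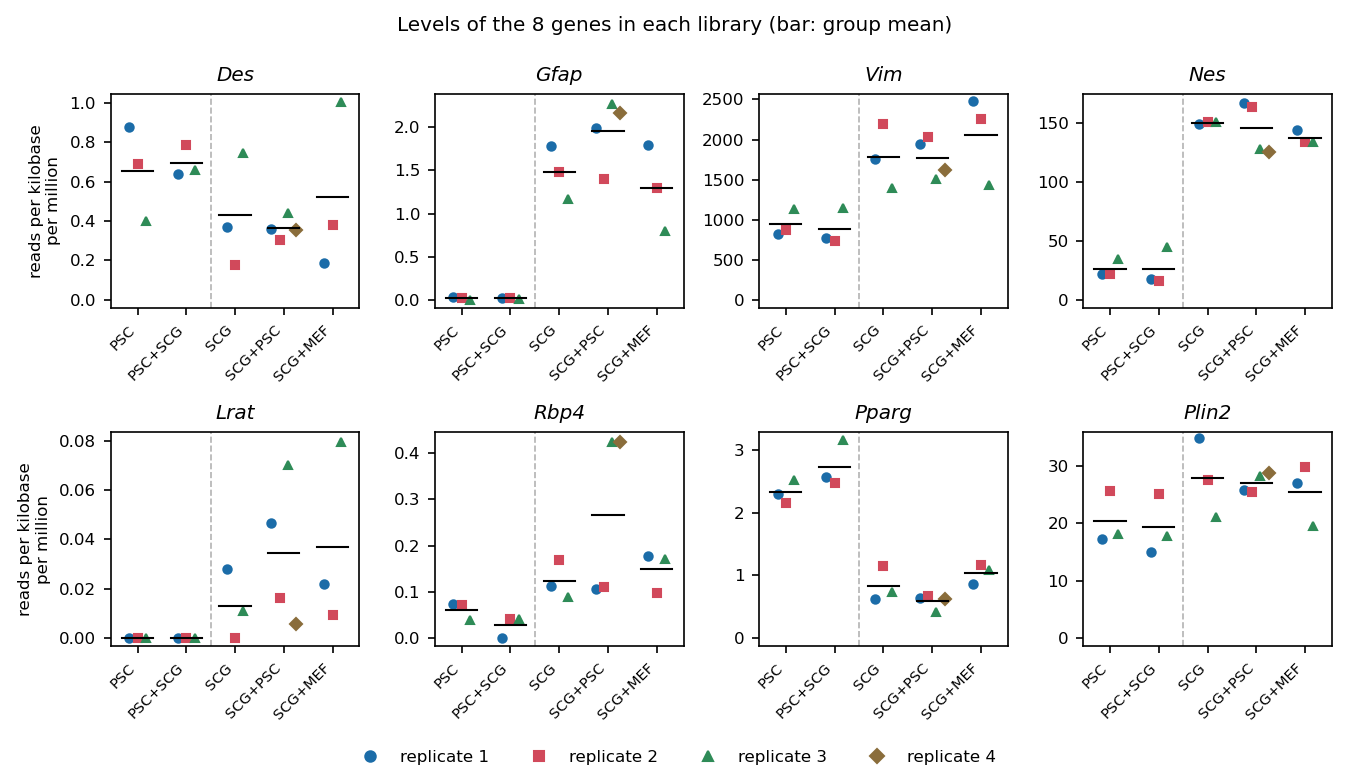
Level of each of the 8 genes in every library, in RPKM, with 1 point per library, marker by replicate number and a bar at the group mean. The dashed line separates the PSC table from the nerve table. Gfap, Vim and Nes were higher per kilobase in every explant library than in any PSC library, Pparg was higher in every PSC library, and Lrat was at 0 in all 6 PSC libraries.

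In PSCs the filament gene Vim stood far above the rest, at 942 ± 162 RPKM (SD, n = 3) in PSC and 885 ± 229 in PSC+SCG. Nes, which encodes nestin, the filament protein of progenitor cells, followed at 26.0 ± 7.29 and 26.3 ± 16.1 RPKM, and Plin2 at 20.3 ± 4.53 and 19.2 ± 5.19. The ranges of Nes and Plin2 overlapped in both groups, so their order is not resolved. Pparg was at 2.33 ± 0.192 and 2.74 ± 0.367 RPKM and Des at 0.655 ± 0.239 and 0.694 ± 0.0798. Pparg lay below Plin2 and above Des in every PSC library.

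In the explants, Vim was again the highest of the 8 and Nes lay above Plin2 in every library. Vim was at 1782 ± 401 RPKM in SCG, Nes at 150.1 ± 0.896 and Plin2 at 27.8 ± 6.93. Gfap, a marker of glia as well as of stellate cells, came next at 1.48 ± 0.31, above Pparg at 0.836 ± 0.279 and Des at 0.431 ± 0.288. The ranges of Pparg and Des in SCG overlapped. Rbp4 had 4 to 19 reads and Lrat 0 to 15 reads over the 10 explant libraries. In the same libraries the 8 glial markers, Sox10 among them, summed to between 1680 and 2280 RPM in SCG, against 3.54 to 5.38 in PSC, and their part in the levels of Gfap and Nes was not tested.

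Coculture with explants moved none of the members past the threshold in PSCs. Lrat could not be tested, and of the 7 members tested 0 passed without a block and 0 with it, also by edgeR and DESeq2. Of all 14541 protein-coding genes tested, 0 passed without a block (0%), with 205 at an unadjusted p under 0.05, 0 by edgeR and 1 by DESeq2, and 76 passed with it (0.523%), 65 higher and 11 lower. No member had an unadjusted p under 0.05 in either fit. The median log2 fold change of the 7 members was -0.06, against 0.01 over all protein-coding genes tested.

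Vim had normalized counts of 63912, 69286 and 91680 in PSC replicates 1, 2 and 3 and of 60788, 57553 and 98043 in PSC+SCG. Nes, in the same order, had 4726, 4804 and 7803 in PSC and 3940, 3527 and 10696 in PSC+SCG. For both filament genes the highest library of each group was replicate 3, and the ranges of the groups overlapped. With the replicate block the log2 fold change was -0.08 for Vim (95% interval -0.34 to 0.18) and -0.08 for Nes (-0.35 to 0.18), and adjusted p was 0.995 and 0.994 (limma). Nes was lower in PSC+SCG in pairs 1 and 2, by -0.26 and -0.45, and higher in pair 3, by 0.46.

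Acta2 and Lmna were also highest in the replicate 3 library of each group. Acta2 counts were 33709, 25163 and 36041 in PSC replicates 1 to 3 and 31156, 20889 and 61518 in PSC+SCG, with the highest value of all in PSC+SCG replicate 3. Its log2 fold change was 0.13 with the block (adjusted p = 0.972, limma). Lmna, a nuclear lamin gene named here after its values were seen, was at 34763 and 35690 in replicate 3 of PSC and PSC+SCG. With each replicate 3 given a block of its own, the fit rested on pairs 1 and 2 alone. The estimate for Nes was then -0.35, with an adjusted p of 0.125 (limma). The cause of the higher values in replicate 3 was not tested.

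Des, the muscle and stellate cell filament gene, had few reads in PSCs, 68 to 161 per library. Its normalized counts were 136, 110 and 65.5 in PSC and 102, 123 and 113 in PSC+SCG. The PSC+SCG values fell inside the range of PSC, and the log2 fold change of 0.17 had an interval of -0.32 to 0.66 with the block. For Gfap and Rbp4 both groups were near the level of 3 reads, and no fold change is given. Over the 13 other intermediate filament genes, which hold the neurofilaments, keratins and lamins, 11 were tested and 0 passed in either fit, with a median log2 fold change of -0.14.

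Pparg was the member whose pairs all moved the same way, though the share of all genes that do so was not counted. Its normalized counts were 463, 446 and 537 in PSC and 529, 505 and 702 in PSC+SCG. PSC+SCG was higher in all 3 pairs, by 0.19, 0.18 and 0.39 on the log2 scale, although the groups overlapped, since PSC replicate 3 lay above 2 of the PSC+SCG libraries. The log2 fold change was 0.25 ± 0.13 (SE) with the block, with an interval of -0.02 to 0.52 and an adjusted p of 0.654 (limma), and did not pass.

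Plin2, the ubiquitous droplet coat protein gene, had 3160, 4796 and 3478 in PSC and 2801, 4612 and 3573 in PSC+SCG. Replicate 2 was the highest in both groups, and the pairs differed by -0.17, -0.06 and 0.04. The log2 fold change was -0.06 (interval -0.27 to 0.14 with the block, adjusted p = 0.995, limma). Of 28 further lipid droplet and PPAR genes, 22 were tested. With the block 1 passed, against 0.523% of all protein-coding genes, and without it 0. That gene was Plin4, another perilipin, which fell by 0.69 on the log2 scale (limma SE 0.13, adjusted p = 0.0121). It was lower in all 3 pairs, by -0.58, -0.38 and -1.09. Its counts were 914, 2485 and 926 in PSC and 610, 1903 and 434 in PSC+SCG, so replicate 2 was high in both groups and the groups overlapped. Its call held in 2 of the 6 block fits that left out 1 library, and was lost without either library of pair 1 (adjusted p 0.147 and 0.0956). The estimate was the same whichever library of a pair was left out, so these 6 fits are not separate checks. It was also lost without PSC+SCG replicate 3 or PSC replicate 3, where the log2 fold change was -0.48. Cd36 and Cidec, genes of fatty acid uptake and droplet fusion, were at 0 in all 6 libraries.

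**Figure D2:**
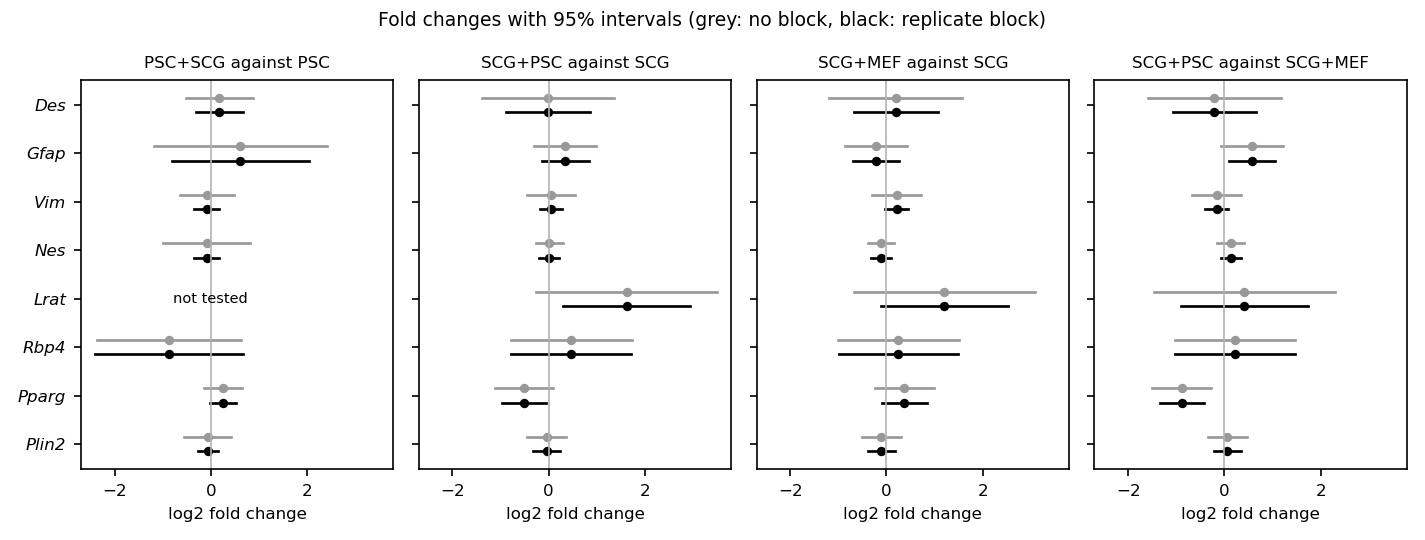
Log2 fold changes of the members in the 4 comparisons with 95% intervals from limma, in grey without a block and in black with the replicate block. Most intervals cross 0, and Lrat was not tested in PSCs. With the block, intervals are widest for Lrat, Rbp4 and, in PSCs, Gfap, which rest on 0 to 19 reads a library.

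Some retinoic acid genes around the members did pass with the block. Of 24 retinoid genes beside the members, 20 were tested in PSCs, and 3 rose with the replicate block, against 0.523% of all protein-coding genes: Rarb, Cyp26b1 and Dhrs3. The list was drawn up with earlier results of these data known, so its count is no independent test against that share. None of the 20 passed without the block, where the smallest adjusted p over all genes was 0.9999 (limma). The median log2 fold change of the 20 was 0.07, and 14 of them were positive.

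Rarb encodes retinoic acid receptor beta, a receptor whose own gene is a textbook target of retinoic acid. The gene, ENSMUSG00000017491, spans 5650540 to 6041094 of chromosome 14 (GRCm39). Its normalized counts were 299, 170 and 220 in PSC replicates 1 to 3 and 517, 442 and 482 in PSC+SCG. Every PSC+SCG library lay above every PSC library, and the share of all genes that separate so was not counted. The pairs differed by 0.79, 1.37 and 1.13. The log2 fold change was 1.10 ± 0.16 (SE, adjusted p = 7.41e-04 with the block). Rarb is also on a gene list that the study drew up from these libraries, so its direction is not independent evidence.

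Cyp26b1 (ENSMUSG00000063415, chromosome 6, 84548396 to 84570890), the gene of a retinoic acid degrading enzyme, had 79.5, 19.3 and 58.8 in PSC and 186, 91.8 and 194 in PSC+SCG. The groups did not overlap, again with no count of how many genes do so. The log2 fold change was 1.70 ± 0.25 (SE, adjusted p = 8.19e-04 with the block). Dhrs3 (ENSMUSG00000066026, chromosome 4, 144619245 to 144654779), whose product turns retinaldehyde back into retinol, had 1919, 669 and 502 in PSC and 2365, 2383 and 1390 in PSC+SCG. It was higher in all 3 pairs, by 0.30, 1.83 and 1.47, but the groups overlapped because of the high PSC replicate 1. Its log2 fold change was 1.20 ± 0.18 (SE, adjusted p = 8.19e-04 with the block, limma). That SE leans on the spread of other genes and is not the spread of these 3 pairs. All 3 genes kept the call in each of the 6 block fits that left out 1 library, with adjusted p of at most 0.0196, and with edgeR under the same block. These 6 fits are not separate checks, since leaving out either library of a pair gave the same estimate. DESeq2 with the block called Rarb and Cyp26b1 and not Dhrs3 (adjusted p = 0.285).

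**Figure D3:**
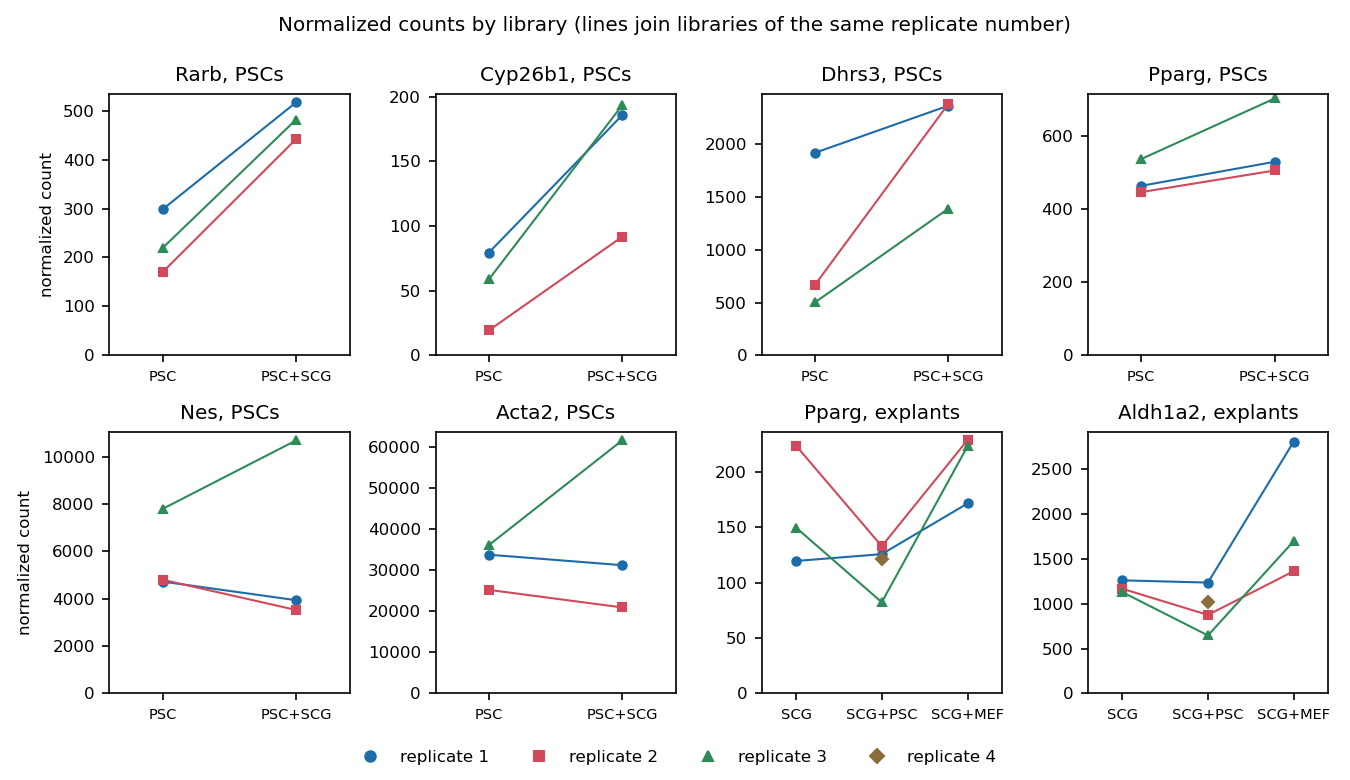
Normalized counts by library, with lines joining libraries of the same replicate number, for genes of PSCs and, in the last 2 panels, of explants. Rarb, Cyp26b1, Dhrs3 and Pparg were higher in PSC+SCG in all 3 pairs, Nes and Acta2 only in pair 3, and Pparg and Aldh1a2 of the explants were lower in SCG+PSC than in SCG+MEF in all 3 pairs.

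The other steps of the pathway did not pass. Stra6, the membrane receptor that takes up retinol from RBP4, had 4 to 18 reads in PSC and 13 to 26 in PSC+SCG, with a log2 fold change of 1.02 (interval 0.05 to 1.98, adjusted p = 0.547 with the block). This value rested on pair 2, at 2.27 beside 0.55 and 0.24, and was 0.40 without either replicate 2 library. The next genes were chosen after their values were seen. Crabp1, which binds retinoic acid in the cytosol, was lower in all 3 pairs (log2 fold change -0.64, adjusted p = 0.117), and Rdh10, which makes retinaldehyde, was higher in all 3 (0.34, adjusted p = 0.512). The receptor genes Rara and Rarg differed by -0.05 and 0.02, with intervals of -0.27 to 0.17 and -0.19 to 0.22.

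**Figure D4:**
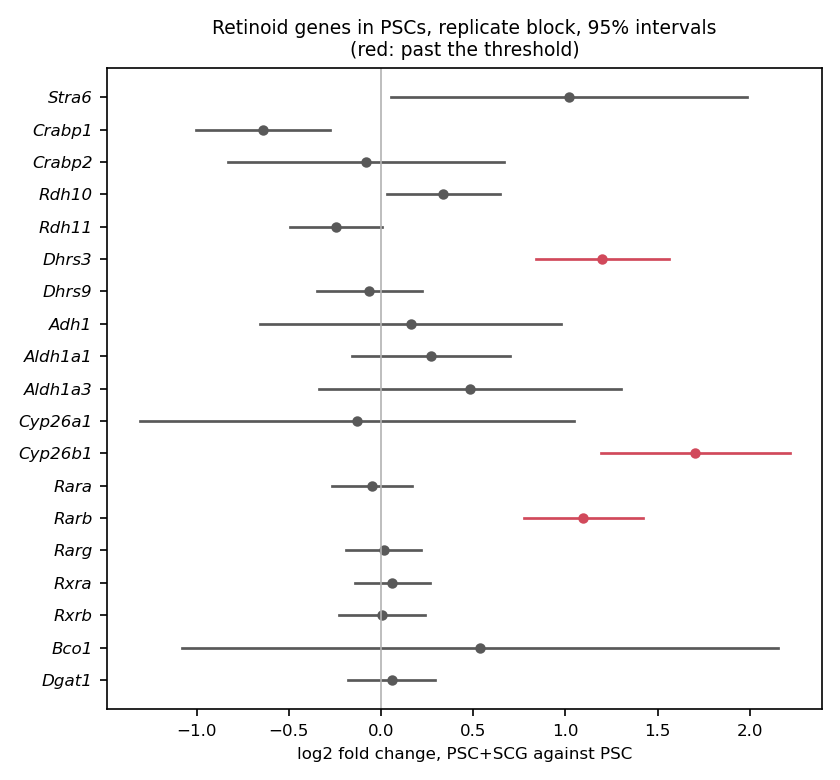
Log2 fold changes of retinoid genes tested in PSCs, all but 1 of the 20, PSC+SCG against PSC, with 95% intervals from limma with the replicate block. Rarb, Cyp26b1 and Dhrs3, in red, passed the threshold at 1.10, 1.70 and 1.20, and the receptor genes Rara, Rarg, Rxra and Rxrb lay close to 0.

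The genes of the enzymes that make retinoic acid are set side by side for the partners of the coculture, with no test between the tables. Aldh1a3 (named here after its values were seen) was at 35.4 ± 6.59 RPKM in SCG and 0.091 ± 0.0618 in PSC, and Aldh1a2 at 7.47 ± 0.55 and at 0 to 1 reads a library. Aldh1a1, also named after its values were seen, ran the other way, at 0.807 ± 0.358 in PSC and 0.0157 ± 0.0151 in SCG. In PSC+SCG libraries Aldh1a3 counts were 14.8 to 29.7, inside the range of 9.08 to 31.3 in PSC. Rarb, Cyp26b1 and Dhrs3 were themselves higher per kilobase in SCG, at 8.76, 5.71 and 31.5 RPKM, than in PSC, at 1.57, 0.256 and 10.3. Among defining genes of the explants, Th, the tyrosine hydroxylase gene, had 0 reads in all 3 PSC+SCG libraries. In PSC alone it had reads in replicate 3 only. Foxd3 was at 0 in all 6 libraries, and Sox10 had 0 to 1 reads. The 12 neuron markers summed to 33.6 to 54.8 RPM in PSC and 45.4 to 61.3 in PSC+SCG, with 3260 to 6990 in SCG, and the 8 glial markers to 3.54 to 5.38, 4.55 to 5.55 and 1680 to 2280. Of the 6 neuron markers that could be tested all 6 had a positive log2 fold change in PSC+SCG (median 0.38), and of the 6 glial markers 5 did (median 0.27, with Fabp7 at 1.07, adjusted p = 0.289 with the block). The neuronal filament genes, on another list, went the other way: Ina at -1.73, Nefm at -0.84, Prph at -0.64 and Nefh at -0.52. None of these passed, and their part in the rise of Rarb, Cyp26b1 and Dhrs3 was not tested. The 7 macrophage markers summed to 32.0 to 34.8 RPM in PSC and 39.7 to 40.6 in PSC+SCG, with Adgre1, C1qb and Ptprc at 0 in all 6.

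The retinoic acid response element of textbook form, DR5, was searched for in RefSeq promoters of build GRCm38.p6, as a pair of short sites, each GGTCA or GTTCA, in the same direction with 6 letters between them, on either strand. Of 32851 promoters of 300 bases, 81 held it (0.247%). Of the 24 retinoid genes 18 had a promoter in the table, and those of Rarb and Cyp26a1 held it. No promoter of the 8 members did, nor those of Cyp26b1 and Dhrs3. The shorter spaced form, DR2, with 3 letters between the sites, was in 131 promoters (0.399%) and in none of the 18 or the 8. The stretches around the element are shown because Rarb rose while Cyp26a1, the gene of a second retinoic acid degrading enzyme, had normalized counts of 3.4 to 15.9 in PSC and 2.1 to 11.8 in PSC+SCG and did not pass. Both are written on the strand of the gene, and capitals mark the match.
Rarb: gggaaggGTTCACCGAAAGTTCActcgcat
Cyp26a1: ttaaagaTGAACTTTGGGTGAACtaatttg
By exact match to GRCm39 the Rarb stretch lies at chr14:5894228-5894257 and the Cyp26a1 stretch at chr19:37686217-37686246. In RefSeq the matches end 37 and 17 bases before the start of transcription. In GENCODE M39 the Rarb stretch overlaps a UTR exon in 14 of 21 transcripts and the Cyp26a1 stretch in 1 of 2. In Cyp26a1 the sites read on the opposite strand. A match is a description of the sequence and not of binding.

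In the explants 0 of the 8 members passed in any comparison, with or without the block. Of 15908 protein-coding genes tested, 3 (0.0189%) passed in SCG+PSC against SCG without a block and 309 (1.94%) with it. In SCG+MEF against SCG, 3 (0.0189%) passed without and 38 (0.239%) with the block, and in SCG+PSC against SCG+MEF 0 (0%, with 488 at an unadjusted p under 0.05, 0 called by edgeR and 18 by DESeq2) and 181 (1.14%). Among the members, an unadjusted p under 0.05 was reached without the block by 1, Pparg in SCG+PSC against SCG+MEF. With the block it was reached by Lrat and Pparg in SCG+PSC against SCG and by Gfap and Pparg in SCG+PSC against SCG+MEF, and none of these passed after adjustment. The 3 comparisons share libraries and are not independent of each other. Replicate 4 of SCG+PSC was left out of these fits and entered an alternative.

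Pparg of the explants was lower in cocultures with PSCs than in those with MEFs, short of the threshold in limma. Its normalized counts were 126, 133 and 82.3 in SCG+PSC replicates 1 to 3, 171, 229 and 223 in SCG+MEF and 119, 224 and 150 in SCG. Each SCG+PSC library lay below each SCG+MEF library, and SCG overlapped both groups. The share of all genes that separate in this way was not counted. The 4th SCG+PSC library, at 121, lay inside the range of its group. The log2 fold change of SCG+PSC against SCG+MEF was -0.88 ± 0.21 (SE with the block, interval -1.34 to -0.43), and adjusted p was 0.0805 with the block and 1 without it (limma), so it did not pass. DESeq2 with the block did call it (-0.87, adjusted p = 0.0123), the 1 call of a member in any fit. That fit called 365 of 15960 protein-coding genes, and edgeR with the block did not call Pparg (adjusted p = 0.0792). Against SCG alone, the difference was -0.51 for SCG+PSC (adjusted p = 0.396 with the block) and 0.37 for SCG+MEF (adjusted p = 0.734).

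Gfap, known as a marker of glia, had 312, 260 and 211 in SCG, 354, 250 and 401 in SCG+PSC replicates 1 to 3 and 319, 229 and 147 in SCG+MEF. The groups overlapped, and the difference of SCG+PSC from SCG+MEF, 0.57 ± 0.22 (SE), came mainly from pair 3, at 1.44, beside 0.15 and 0.13 in the others (adjusted p = 0.32 with the block, limma). With the block, 0.239% of all protein-coding genes passed in SCG+MEF against SCG and 1.14% in SCG+PSC against SCG+MEF. The glial list held 1 call of 8 in each of these comparisons and none in SCG+PSC against SCG. That gene was Fabp7, a fatty acid binding protein of immature glia, lower in SCG+MEF than in SCG (-0.50, adjusted p = 0.0338) and than in SCG+PSC. The call against SCG was lost without any 1 of the 6 libraries, and that against SCG+PSC held in 2 of 6 fits.

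Vim and Nes, at 107913 to 188229 and 26170 to 35277 normalized counts over the 10 explant libraries, had differences of at most 0.21 and 0.13 in size among the 3 comparisons. Nes in SCG+MEF, at 30429, 28107 and 29141, lay below all SCG libraries, at 30969, 31364 and 32501. The log2 difference was -0.11 (interval -0.32 to 0.10 with the block), and the share of all genes that separate so was not counted. Plin2 was at 3603 to 6138, with differences of -0.04, -0.10 and 0.06 and intervals within -0.39 and 0.35 with the block. Lmnb1, a nuclear lamin gene, was the filament gene beyond the members that passed with the block, higher in SCG+PSC than in SCG (0.63) and than in SCG+MEF (0.66). Each of these calls held in 3 of the 6 block fits without 1 library.

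Des varied widely among replicates of SCG and SCG+MEF. It had 55.7, 26.6 and 116 in SCG, 54.7, 46.6, 66.2 and 53.5 in SCG+PSC and 28.4, 57.8 and 158 in SCG+MEF, with replicate 3 the highest in both SCG and SCG+MEF. Its intervals with the block ran from -0.88 to 0.85 in SCG+PSC against SCG, from -0.67 to 1.06 in SCG+MEF against SCG and from -1.08 to 0.66 in SCG+PSC against SCG+MEF. Lrat had 0 to 5 reads in SCG, 1 to 12 in SCG+PSC and 2 to 15 in SCG+MEF, and Rbp4 4 to 8, 5 to 19 and 5 to 8. Rbp4 reached 18 and 19 reads in SCG+PSC replicates 3 and 4 and 5 in replicates 1 and 2. Neither gene passed in any comparison.

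Of the retinoid genes in explants 23 were tested. With the block 1 passed, in SCG+PSC against SCG+MEF, where 1.14% of all protein-coding genes did. It was Aldh1a2, the retinoic acid making enzyme gene, at 1236, 875 and 646 in SCG+PSC replicates 1 to 3, 2807, 1363 and 1698 in SCG+MEF and 1261, 1167 and 1130 in SCG. Each SCG+PSC library lay below each SCG+MEF library, and each SCG+MEF library lay above each SCG library, by 0.65 on the log2 scale (adjusted p = 0.212 with the block). How many genes separate in these ways was not counted. Against SCG+MEF, Aldh1a2 in SCG+PSC was lower by a log2 difference of -1.07 ± 0.16 (SE, adjusted p = 0.0219 with the block, 1 without, limma). The call held in 3 of the 6 block fits without 1 library, and was lost without SCG+MEF replicate 1 or 3 or SCG+PSC replicate 1 (adjusted p 0.231, 0.211 and 0.0681). Rarb, Cyp26b1 and Dhrs3, which rose in PSCs, differed in SCG+PSC against SCG by 0.03, 0.06 and 0.41, and none passed (adjusted p = 0.939, 0.933 and 0.242 with the block). Among fibroblast markers, Lum and Dcn, small proteoglycans of connective tissue, passed with the block: Lum was higher in SCG+PSC (0.65) and SCG+MEF (1.29) than in SCG, and Dcn in SCG+MEF (0.74), while Lum was lower in SCG+PSC than in SCG+MEF (-0.64). These calls held in 3, 5, 1 and 1 of the 6 block fits without 1 library. This list summed to 682 to 715 RPM in SCG, 742 to 953 in SCG+PSC and 898 to 1000 in SCG+MEF, and its part in the differences of Aldh1a2 and Pparg was not tested.

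Across the 10 explant libraries, the genes most like each of 6 members were named by Pearson's r of log2 counts among 12845 protein-coding genes. They were Moxd1 for Des (r = 0.975), Rprm for Gfap (0.929), Notch1 for Vim (0.976), Rad51d for Nes (0.955), Zfp110 for Pparg (0.914) and Pamr1 for Plin2 (0.959). Lrat and Rbp4 were left out for their low counts. These are descriptions over 10 libraries that share groups and replicate numbers, chosen as the highest of many.

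The members lie apart in the genome. In GRCm39 Des (ENSMUSG00000026208) is on chromosome 1 from 75320511 to 75345223, Gfap (ENSMUSG00000020932) on 11 from 102778159 to 102791738, Vim (ENSMUSG00000026728) on 2 from 13578738 to 13587639 and Nes (ENSMUSG00000004891) on 3 from 87878385 to 87887758. Lrat (ENSMUSG00000028003) is on chromosome 3 from 82799886 to 82811288, Rbp4 (ENSMUSG00000024990) on 19 from 38105066 to 38113754, Pparg (ENSMUSG00000000440) on 6 from 115337675 to 115468268 and Plin2 (ENSMUSG00000028494) on 4 from 86565912 to 86588459. No exon base of any of the 8 lies in another gene on the same strand. Antisense genes cover 26.1% of the exon bases of Vim, 16.7% of Rbp4 and 6.52% of Des, and the authors counted reads by strand.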

How the data were processed

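RNA of 16 libraries in 5 groups was sequenced, with groups and replicate numbers taken from the labels. The authors aligned reads to GRCm39 with STAR 2.7.10b and counted them by strand on GENCODE M33 (basic). Counts were scaled by DESeq2 size factors (DESeq2 1.38.3 in R 4.2.2, per the paper and the submitters' processing notes), PSC and nerve libraries apart. The deposited values are these normalized counts, a signal per gene. All columns belong to a sample of this series.

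Every value was a whole multiple of 1 step per library (tolerance 1e-06), which gave back reads and depth, 31900689 to 41632381. Levels of 3 reads or fewer were taken as at the floor. RPKM used exon unions of basic transcripts in GENCODE M39.

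The tests used R 4.3.3 and limma 3.58.1 (trend, pseudocount 1, sum of at least 10 over the fitted libraries). The nerve fit held 9 libraries. Pairing came from the replicate numbers: same-numbered libraries correlated over genes at 0.545 to 0.826 in PSCs and 0.395 to 0.78 in explants. Alternatives were the block, edgeR 4.0.16 and DESeq2 1.42.0 on reads, other scalings, pseudocounts and filters, and leaving out each library. The limma test was checked on simulated data.

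Named genes were the 8 members, Stra6, Rarb and Acta2, and listed genes past the threshold (with the block in PSCs, without it in explants), at most 6 per list. Some listed genes are not reported here. Genes past it in explants only with the block (Aldh1a2, Lmnb1, Lum, Dcn and Fabp7) were named after their values were seen. So were Tcf21, Col1a1, Sox10, Th, Cyp26a1 and others marked so. Members, lists and rules were chosen with earlier results of these data known. The study modelled an experimental date, which the labels do not tie to libraries, so it was not used.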

Additional observations from a re-analysis of the deposited data

How the results depend on the processing

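The count of members past the threshold stayed at 0 under every alternative run, in all 4 comparisons, except for 1 (Pparg) in SCG+PSC against SCG+MEF with DESeq2 and the replicate block. Of 764 alternative fits of a member's fold change, 1 passed. Counts of protein-coding genes depended on the block. In PSC+SCG against PSC the count was 0 without it, 76 with it, 163 with replicates 3 apart, 1 with DESeq2, and 81 and 65 with edgeR and DESeq2 with the block. Leaving out 1 library gave 0 without the block and 38 to 166 with it, a range of 0 to 166. In SCG+PSC against SCG it was 3, then 309 with the block, 323 and 415 with edgeR and DESeq2 with the block, 58 with DESeq2, 8 with all 4 SCG+PSC libraries (308 with the block), 1 with only the 2 groups compared, and 1 to 367 without 1 library. In SCG+MEF against SCG it was 3, then 38 with the block, 36 and 104 with edgeR and DESeq2 with it, 21 with DESeq2, 1 with only the 2 groups compared, and 0 to 50 without 1 library. In SCG+PSC against SCG+MEF it was 0, then 181 with the block, 206 and 365 with edgeR and DESeq2 with it, 18 with DESeq2, 182 with all 4 libraries and the block, and 0 to 298 without 1 library. With the block, the last count was 0 without SCG+MEF replicate 1 or 3 and 11 without SCG+PSC replicate 1. The causes were not tested. With the block, replicate 4 of SCG+PSC had no partner of its number and could not shift the estimates. The counts of 308 and 182 are thus no check on that library. With replicates 3 apart, the PSC estimates rested on pairs 1 and 2 alone, so the 163 does not use pair 3. In PSCs, a block fit without 1 library lost the whole pair from the estimate. The fits with the block and edgeR, DESeq2, all 4 SCG+PSC libraries or 1 library left out, and edgeR and DESeq2 for PSCs, were chosen after seeing the data.

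Few reads limit Lrat, Rbp4 and, in PSCs, Gfap, for which no absence or change can be read from these libraries.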
